A study of Mus musculus with 12 samples.

Results

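The comparison described here is that of cocaine with saline in the striatum of mice whose serum response factor gene, Srf, was mutated. Its members are 6 of the 12 arrays of the series, 3 titled as cocaine-treated mutants and 3 titled as saline-treated mutants, chosen by their titles. The other 6 arrays, 3 cocaine-treated and 3 saline-treated controls, serve as the reference response. Each array measured RNA from the striatum, the nucleus accumbens included, of a sample that its title calls a biological replicate. All animals were female littermates of 10 to 15 weeks, caged singly, handled for 5 days, given 25 mg/kg cocaine or saline into the peritoneum and killed 1 hour later. The treatment text gives the cocaine injection for every sample, so the saline groups rest on the titles and the series design. The allele of Srf, the cells in which it was changed, and any promoter or Cre line that the controls also carry were not stated in the labels.

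SRF is a transcription factor that binds CArG boxes in the promoters of immediate early genes and of genes for the actin cytoskeleton. Cocaine blocks the reuptake of dopamine, and dopamine and glutamate inputs switch on immediate early genes in medium spiny neurons, the projection neurons of the striatum. These genes are reached through more than 1 route: MAP kinase signalling acts on SRF and its ternary complex partners such as Elk4, and cyclic AMP and calcium act on CREB, which binds the cyclic AMP response element (CRE). A comparison of cocaine with saline in these mutants describes the early response that remains when Srf is lowered. It cannot show which genes need no SRF, since the cells in which Srf was changed were not stated.

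Values are log2 signals per probe set, so a difference of 1 is a factor of 2. Srf read 5.28, 5.27 and 5.01 in saline-treated mutants and 5.33, 5.46 and 5.49 in cocaine-treated mutants, against 6.97 to 7.21 over the 6 control arrays. All mutant arrays lay below all control arrays, and the saline groups differed by -1.97 (limma, adjusted p = 3.2e-07). In these bulk samples, fewer cells that express a gene and less RNA per cell cannot be told apart. The Srf signal left in mutants lay above the filter level of 4, and whether the responding cells kept SRF was not tested. Array medians were 3.75 to 3.78, and correlations within groups over tested probe sets were 0.986 to 0.993. Striatal identity was present: 22 of 28 medium spiny neuron genes passed the filter, and Penk, the enkephalin precursor, read 11.62 to 11.99, while the receptor genes Drd1 and Adora2a were not among the tested genes. The description fields of the arrays name other groups than the titles, and the Srf levels follow the titles.

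The response to cocaine in mutants consisted mostly of increases. A probe set was tested when it exceeded 4 in at least 3 of the 12 arrays, which left 11102, and called at an adjusted p under 0.05. In mutants 195 probe sets rose (1.76% of those tested) and 18 fell (0.162%). By the brightest probe set of each of 6651 genes, 132 genes rose (1.98%) and 10 fell (0.15%), while the median change of all probe sets was -0.01. In the 213 called probe sets the cocaine arrays lay wholly on one side of the saline arrays. This largely follows from the choice, since the calls were made on these arrays. Over all tested probe sets, the cocaine arrays lay wholly above in 8.4% and wholly below in 7.65%. Controls gave 50 probe sets higher (0.45%) and 0 lower (0%), with 704 at an unadjusted p under 0.05 (6.34%) of which 243 were lower, by limma, and 7 lower calls with array weights. At the same unadjusted p mutants had 1193 (10.7%), 499 of them lower. A larger number of calls in mutants is not a test of a larger response. The mutant calls numbered 131 when cocaine replicate 1 of this genotype was left out, and 141 when cocaine replicate 2 was.

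Most of the mutant risers were modest. Of the 132 genes, 43 changed by 1 or more. Among the 195 probe sets, 13 rose by at least 2 (median 2.70, with a median of 2.29 for the same probe sets in controls), 39 by 1 to 2 (1.25, and 0.63 in controls) and 143 by less than 1 (0.60, and 0.26 in controls). Since these were chosen by their change in mutants, the reverse choice is given too: the 50 probe sets that rose in controls had a median of 1.22 there and 1.04 in mutants. Of these 3 classes, 12, 15 and 13 probe sets were also called in controls. The shared 40 made up 20.5% of the mutant risers and 80% of the control risers. Saline levels of the 132 genes in mutants ran from 2.76 to 9.71 with a median of 5.88, and 11 lay under 4, where the background correction of dim probe sets shapes a fold. Replicate 1 of the cocaine-treated mutants was the highest of its 3 arrays for 66 of the 132 genes, replicate 2 for 56 and replicate 3 for 10, against 36.3%, 34.6% and 29.1% of all 6651 genes.

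The values of the mutant risers in controls follow. The control arrays entered the filter and the spread behind each mutant call, but not the size or direction of the mutant change. The 195 probe sets that rose in mutants had a change above 0 in controls in 188 cases (96.4%, against 51.0% of all tested probe sets). The cocaine arrays of controls lay wholly above the saline arrays for 123 of them (63.1%, against 6.72%). At the level of genes, 127 of 132 were above 0 in controls. The other 5 were Nop58 (0.62 in mutants and -0.19 in controls), Alkbh5 (0.57 and -0.26), Foxj2 (0.56 and -0.12), Dhx40 (0.48 and -0.03) and Slc25a20 (0.45 and -0.06), none of which was called for the difference between the genotypes.

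**Figure D1:**
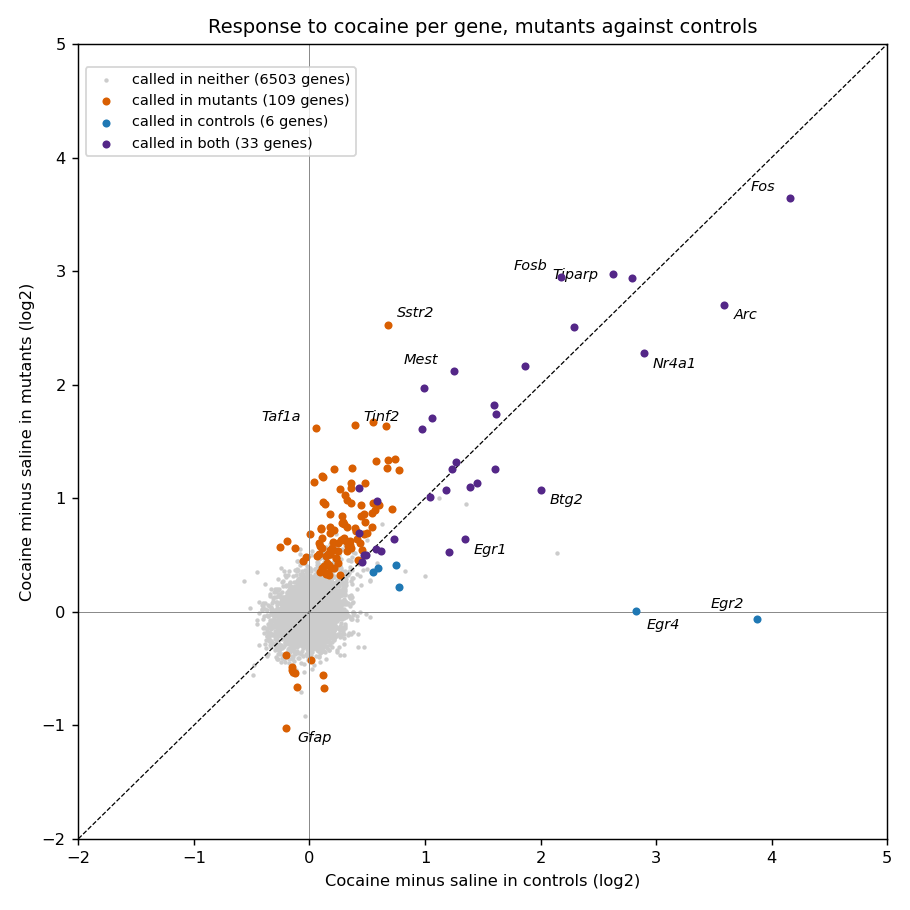
Change with cocaine in mutants (vertical axis, log2) against that in controls (horizontal axis, log2), 1 point per gene by its brightest probe set, coloured by where it was called; the dashed line marks equal change. Fos, Tiparp and Fosb lie high on both axes, Egr2 and Egr4 lie far to the right at a mutant change near 0, Sstr2 and Taf1a lie far above the line, and Gfap is the lowest called point.

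Promoter windows are shown for genes whose response remained, was missing or was larger in mutants, to show which of these motifs they hold, and were chosen with the motif matches known. Each is the 250 bases before a transcription start in RefSeq (GRCm38.p6), written 5′ to 3′ on the strand of the gene, with motif letters in capitals. The motifs searched on both strands were the CArG box, the full CRE TGACGTCA, the CRE core TGACG (which every full CRE contains), the AP-1 site TGACTCA and the EGR site GCGTGGGCG. Egr2 has 5 listed windows, and the one shown is the one with a CArG box.
Egr2, chr10:67537316-67537565, plus strand: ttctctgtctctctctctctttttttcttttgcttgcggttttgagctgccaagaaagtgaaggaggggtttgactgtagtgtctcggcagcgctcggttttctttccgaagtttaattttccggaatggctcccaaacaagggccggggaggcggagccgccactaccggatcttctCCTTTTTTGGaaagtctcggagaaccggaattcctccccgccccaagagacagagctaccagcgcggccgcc
Egr4, chr6:85513590-85513839, minus strand: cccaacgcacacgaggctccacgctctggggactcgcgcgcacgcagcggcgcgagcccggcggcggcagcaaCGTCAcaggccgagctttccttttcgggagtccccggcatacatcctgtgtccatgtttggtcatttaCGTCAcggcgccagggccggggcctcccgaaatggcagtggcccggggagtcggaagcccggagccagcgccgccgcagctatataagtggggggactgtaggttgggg
Fos, chr12:85473640-85473889, plus strand: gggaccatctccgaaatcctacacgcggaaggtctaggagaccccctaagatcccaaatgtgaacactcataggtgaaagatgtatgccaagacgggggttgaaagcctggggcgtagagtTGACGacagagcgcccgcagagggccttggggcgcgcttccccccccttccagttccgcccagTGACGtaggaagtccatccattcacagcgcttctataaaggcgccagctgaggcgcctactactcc
Dusp1, chr17:26508473-26508722, minus strand: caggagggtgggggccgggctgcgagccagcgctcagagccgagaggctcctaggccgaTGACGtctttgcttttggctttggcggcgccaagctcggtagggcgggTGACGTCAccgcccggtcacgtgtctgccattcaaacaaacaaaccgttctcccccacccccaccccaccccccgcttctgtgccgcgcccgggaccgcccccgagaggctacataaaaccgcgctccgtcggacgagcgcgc
Sstr2, chr11:113619077-113619326, plus strand: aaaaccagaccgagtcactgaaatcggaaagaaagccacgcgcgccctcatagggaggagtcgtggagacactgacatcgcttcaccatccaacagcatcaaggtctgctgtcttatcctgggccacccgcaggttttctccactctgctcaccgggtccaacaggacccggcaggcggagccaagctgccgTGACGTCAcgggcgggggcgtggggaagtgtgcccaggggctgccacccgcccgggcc
Tinf2, chr14:55681818-55682067, minus strand: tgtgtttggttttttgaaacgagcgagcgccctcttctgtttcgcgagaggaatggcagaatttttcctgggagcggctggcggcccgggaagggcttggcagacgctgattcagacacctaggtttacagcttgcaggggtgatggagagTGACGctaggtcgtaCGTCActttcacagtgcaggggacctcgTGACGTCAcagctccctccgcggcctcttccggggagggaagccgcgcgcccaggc
Taf1a, chr1:183388635-183388884, plus strand: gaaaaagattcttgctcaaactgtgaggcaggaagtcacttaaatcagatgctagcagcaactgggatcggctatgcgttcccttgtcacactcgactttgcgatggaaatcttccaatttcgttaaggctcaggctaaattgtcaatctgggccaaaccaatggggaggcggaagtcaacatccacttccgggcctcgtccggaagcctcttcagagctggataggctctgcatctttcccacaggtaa
The capitals in Egr2 are a CArG box that begins 72 bases before the start. Those in Egr4 and Fos are CRE cores, and no full CRE or CArG box (CCWWWWWWGG, where W is A or T) was found in these windows. Bases further upstream and inexact matches were not searched, so an SRF site of either kind would be missed. In Dusp1, Sstr2 and Tinf2 the 8 capitals TGACGTCA are a full CRE, 143, 58 and 56 bases before the start, and the shorter runs are CRE cores. Btg2, whose window is not shown, also has a full CRE, 166 bases before the start. It rose by 1.08 in mutants and by 2.00 in controls, so a full CRE was not limited to genes with a kept or larger rise. Taf1a, whose response was larger in mutants, has 2 listed windows, and the one shown holds none of the 5 motifs. Gpr19 and Zfp948, the other genes with a called larger response, have windows without a full CRE.

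Over all genes with a window, the full CRE was found for 14 of the 123 genes with a window among the 151 with any probe set called higher in mutants (11.4%), against 184 of 5444 genes tested (3.38%) and 5 of 35 control risers (14.3%). The 14 genes were Btg2, Ccnl1, Chgb, Dctn3, Dusp1, Errfi1, Pard6a, Plk2, Ppm1d, Ppp1r15a, Slc25a25, Sstr2, Tinf2 and Trak1. The CRE core was found for 73 (59.3%, against 33.6%), and for 19 of the 35 control risers (54.3%). CArG boxes were found for 3 mutant risers, Arid3b, Mknk2 and Rnd3 (2.44%, against 1.60%), the EGR site for 3 (2.44%, against 1.30%) and the AP-1 site for 2 (1.63%, against 3.77%). Among the 35 control risers these 3 motifs were found for 2 (5.71%), 1 (2.86%) and 1 (2.86%). A gene counted as holding a motif when any of its listed windows did, and the number of windows per gene was not compared between the sets. A match describes the letters of the window and shows no binding, and these shares have no test. Arc, Crem and Egr1 have no window in the table used.

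The AP-1 genes that rose in controls also rose in mutants. Fos, which pairs with Jun proteins to form AP-1, read 5.65, 5.18 and 6.78 on saline and 9.60, 9.68 and 9.25 on cocaine. The groups did not overlap, and the rise was 12.5-fold (log2 change 3.64, SE 0.394, adjusted p = 0.000191), beside 4.16 in controls. Fosb, whose products build up with repeated stimulation, read 2.42, 2.28 and 3.57 under saline, against 6.06, 5.51 and 5.55 under cocaine. Its saline values lay below 4, so the change of 2.95 (SE 0.26) depends on how background was removed. All cocaine-treated mutants exceeded the cocaine-treated controls (4.38, 4.36 and 4.45) for Fosb, a difference in level of 1.31 (adjusted p = 0.012). Junb went from 5.19, 5.02 and 5.91 to 8.10, 8.59 and 8.26 (2.94, SE 0.218). Jun read 0.95 in mutants and 1.36 in controls without a call in either, and Jund 0.21 and 0.19. Of 6 tested AP-1 genes 3 rose, with a median change of 1.95 beside -0.01 over all genes.

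Among effectors and nuclear receptors, Arc and Nr4a1 started higher in mutants. Arc, a postsynaptic protein that controls AMPA receptor traffic, read 5.66, 5.08 and 6.40 in saline-treated mutants and 4.84, 4.24 and 4.23 in saline-treated controls, a difference of 1.27 (adjusted p = 0.030). After cocaine it read 8.44, 8.74 and 8.06 in mutants and 7.77, 8.22 and 8.09 in controls, and these ranges overlapped. The orphan nuclear receptor gene Nr4a1 read 7.66, 7.23 and 7.61 with saline, then 9.70, 9.91 and 9.72 with cocaine in mutants (2.28, SE 0.137). Its saline level was 1.32 above that of controls (adjusted p = 0.00019), and the control change was 2.89. For Arc the saline difference was lost, among other settings, when replicate 1 or 3 of the mutant saline group or replicate 2 or 3 of the control saline group was left out (adjusted p up to 0.142). Of the 132 risers, 11 differed from controls at saline, 9 of them higher, where 1.52% of all genes were higher and 1.91% lower. These were Arc, Cbr3, Chmp1b, Fam43a, Irs2, Lipg, Midn, Nr4a1, Nup98, Pfkfb3 and Plk2.

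The saline group of mutants was uneven for these genes. Replicate 3 had the highest saline value for Fos, Fosb, Junb and Arc, and also for Dusp1 (7.53, 6.97 and 8.41), a phosphatase that switches off MAP kinases, and Gadd45b (5.55, 5.34 and 6.04), which acts in DNA repair and demethylation. Dusp1 rose to 9.96, 10.44 and 10.04 (2.51, SE 0.262) and Gadd45b to 7.60, 8.17 and 7.63 (2.16, SE 0.192), so that all cocaine arrays still exceeded this array. Dusp14, another phosphatase of the family, read 6.89, 7.04 and 8.01 on saline and 8.41, 8.36 and 8.17 on cocaine. Its change of 1.00 was not called (adjusted p = 0.0918). What sets that array apart was not tested.

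Tiparp, a mono-ADP-ribosyltransferase gene, rose evenly over its arrays. It read 5.57, 5.42 and 5.78 under saline, against 8.45, 8.79 and 8.47 under cocaine (2.98, SE 0.14, adjusted p = 1.41e-07), with 2.63 in controls and 2 further probe sets at 2.96 and 3.23. Frmd6, a FERM domain protein gene, went from 5.36, 5.35 and 5.37 to 7.26, 7.25 and 7.03 (1.82). Sertad1, a regulator of cell cycle transcription, changed by 1.74 and Mest, an imprinted gene of the hydrolase fold family, by 2.12 from a mean of 5.90 (SD 0.133, n = 3) to 8.32, 7.95 and 7.81. Slc25a25, a mitochondrial ATP-Mg/phosphate carrier, changed by 1.61 and Kdm7a, a histone demethylase, by 1.35. Of 19 tested activity-regulated effectors, 10 rose and 0 fell in mutants (median 0.63) and 7 rose in controls (median 0.58), where 0.586% of all genes rose. Uncalled members included Sgk1 (0.50), Rgs2 (0.43), Homer1 (0.10) and Rgs4 (-0.01).

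**Figure D2:**
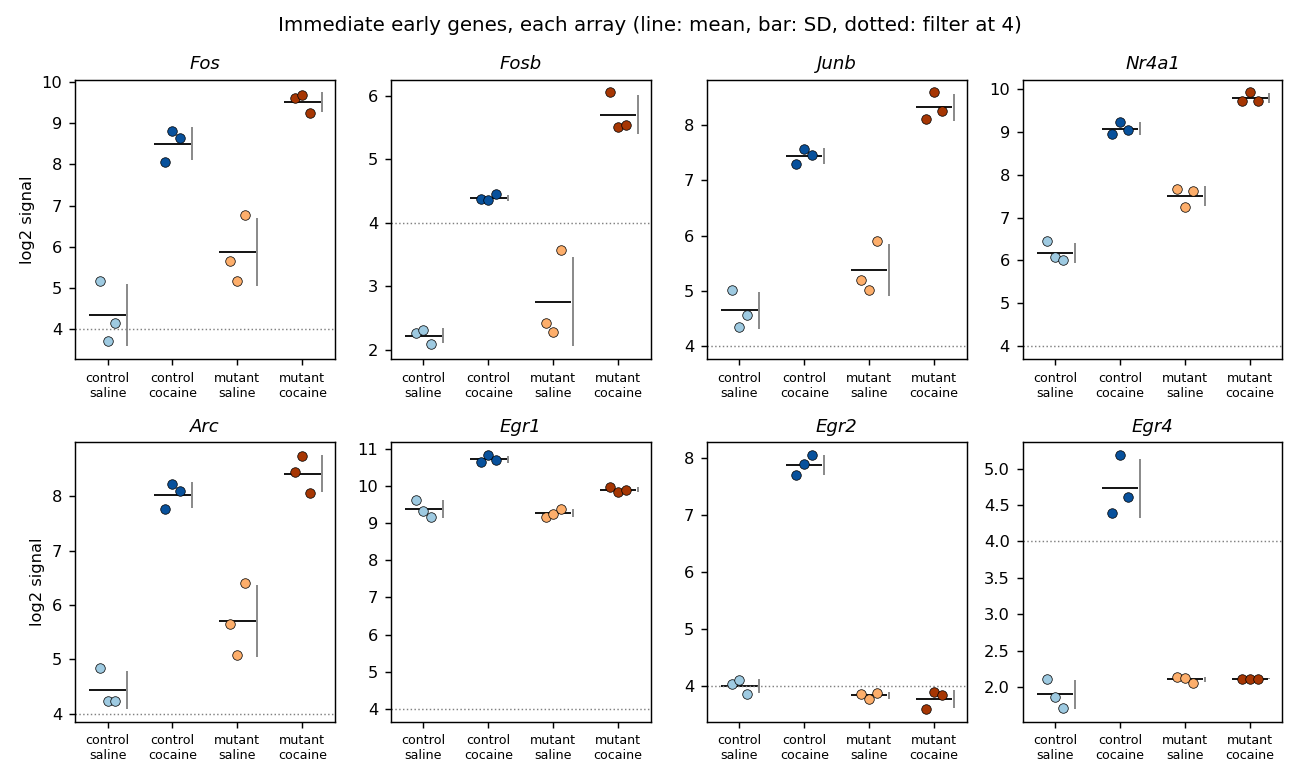
Log2 signal of 8 immediate early genes in each array, by group, with the mean (line) and SD (grey bar) of 3 arrays; the dotted line is the filter level of 4. Fos, Fosb, Junb, Nr4a1 and Arc separate cocaine from saline in both genotypes, Egr1 separates them by less in mutants, and Egr2 and Egr4 do so in controls but not in mutants.

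The Egr family, zinc finger factors known as targets of SRF, was uneven. Egr2 read 3.86, 3.77 and 3.87 with saline, then 3.59, 3.89 and 3.83 with cocaine in mutants, where the ranges overlapped. Its other probe set read 3.24, 3.21 and 3.24, then 3.27, 3.91 and 3.39, with all cocaine arrays above the saline arrays but no call (0.29, adjusted p = 0.781). In controls the first probe set went from 4.04, 4.10 and 3.86 to 7.69, 7.88 and 8.04, and the difference in response was -3.94 (adjusted p = 2.63e-08). Egr4 stayed between 2.06 and 2.13 in all 6 mutant arrays, while it reached 4.39, 5.18 and 4.60 in cocaine-treated controls (difference -2.82, adjusted p = 7e-05). All mutant values of both genes lay under 4, so a small response could not be seen there. Both genes passed the filter only with the cocaine-treated controls, the group in which they were high. Egr1 is different: it read 9.17, 9.23 and 9.38 on saline and 9.97, 9.84 and 9.88 on cocaine in mutants, a rise of 0.64 (SE 0.112, adjusted p = 0.00814) with no overlap. The call was lost when cocaine replicate 1 of the mutants was left out (adjusted p = 0.0506). The control change was 1.34, and the difference of -0.71 was not called (adjusted p = 0.32).

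Other genes called in controls lacked a call in mutants, but their values lay closer together. Nab2, a corepressor of EGR factors, read 0.39 in mutants (adjusted p = 0.0525) and rose by 0.60 in controls. Shisa2 read 0.22 and rose by 0.78 in controls, the survival gene Mcl1 read 0.35 and rose by 0.55, and Pcyt1a, an enzyme of phosphatidylcholine synthesis, read 0.41 and rose by 0.75. Hbegf, an EGF receptor ligand, read 0.31 in mutants and 1.00 in controls by its brightest probe set, uncalled in both, while its dimmer one rose by 0.66 in controls. None of these 5 was called for the difference. Rnd3, which has a CArG box in its window, rose by 0.53 in mutants (adjusted p = 0.0394) and by 1.21 in controls, and Btg2, an antiproliferative gene, by 1.08 from 4.32, 3.38 and 3.82 (adjusted p = 0.0421) and by 2.00. The mutant calls of Rnd3 and Btg2 were each held in 5 of the 12 fits that left out 1 array.

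Receptor genes held the largest called gain in response. Sstr2, the somatostatin receptor that couples to inhibitory G proteins, read 3.81, 3.73 and 3.58 in saline-treated mutants and 6.57, 6.20 and 5.94 after cocaine. No arrays overlapped, and it rose 5.77-fold (2.53, SE 0.144, adjusted p = 6.33e-07). In controls it read 3.28, 3.05 and 3.30 under saline, against 4.08, 3.80 and 3.78 under cocaine, a change of 0.68 (adjusted p = 0.0726), so the control arrays also separated. The difference in response was 1.85 (adjusted p = 0.00146), and values outside the cocaine-treated mutants lay near or under 4. Of those values only the 4.08 of a cocaine-treated control exceeded 4. Sstr2 thus passed the filter through the group in which it was high. Gpr19, an orphan receptor, went from 5.38, 5.71 and 5.42 to 7.23, 7.18 and 7.11 (1.67, against 0.55 in controls; difference 1.12, adjusted p = 0.0436). Gpr3, which raises cyclic AMP without a known ligand, went from 3.13, 3.14 and 3.04 to 4.73, 4.63 and 5.08 (1.71, against 1.06). These 3 were the risers among 10 tested receptors, and Drd2 (-0.05), Htr2c (0.07) and Cnr1 (0.06) were not called.

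Differences in response were rare. Over all tested probe sets 5 were larger in mutants (0.045%) and 3 smaller (0.027%), and 4.98% had an unadjusted p under 0.05. Taf1a, a subunit of the selectivity factor of RNA polymerase I, read 4.54, 4.44 and 4.68 with saline, then 6.41, 6.26 and 5.85 with cocaine in mutants, and 4.56 to 4.72 in all 6 control arrays. Its change of 1.62 (SE 0.122) thus had a counterpart of 0.06 in controls (difference 1.56, adjusted p = 0.00146). Tinf2, a subunit of the telomere protein complex shelterin, went from 4.24, 4.63 and 4.56 to 6.21, 6.22 and 5.93 in mutants and from 4.29, 4.52 and 4.46 to 4.76, 4.78 and 4.90 in controls (difference 1.25, adjusted p = 0.00726). Zfp948, a zinc finger gene, changed by 1.97 and 0.99 (difference 0.98, adjusted p = 0.0309). For Gpr19 and Zfp948 the difference was called in 2 and 3 of the 12 fits without 1 array, and that of Tinf2 was lost without the filter (adjusted p = 0.0921).

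**Figure D3:**
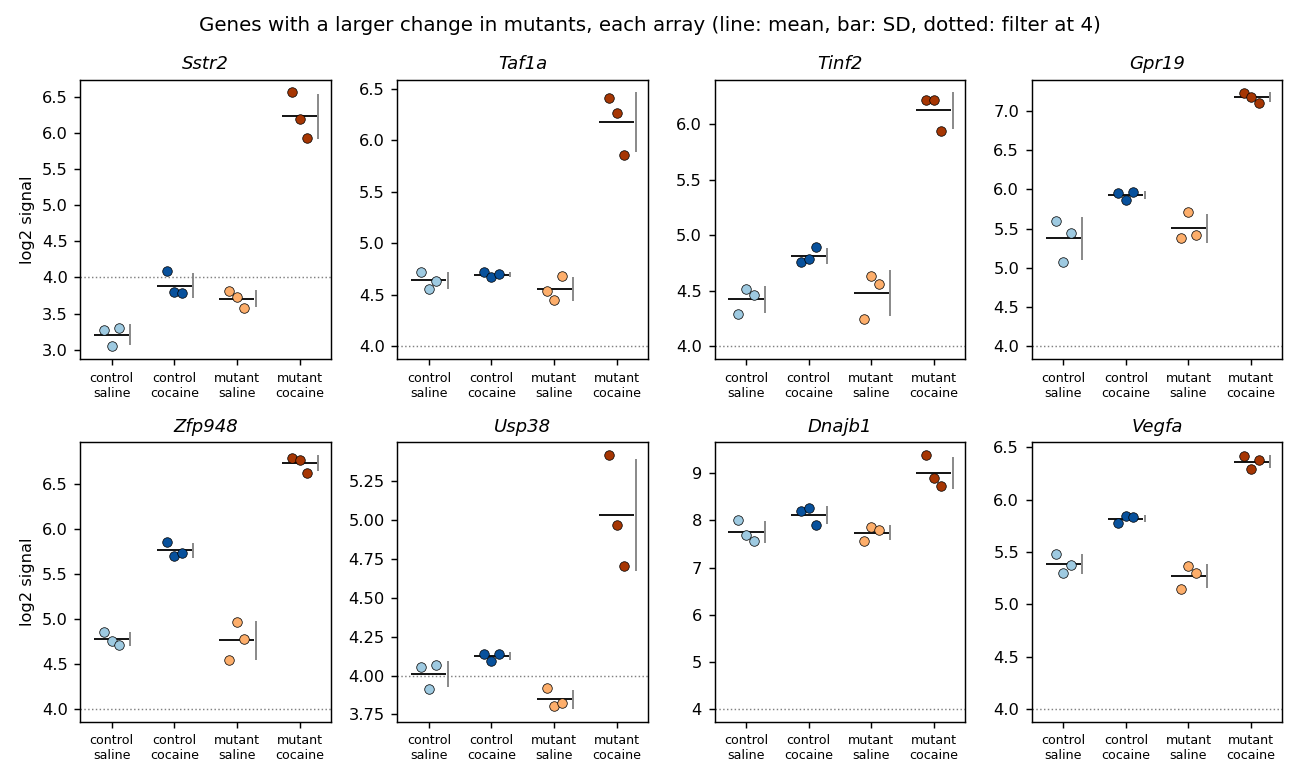
Log2 signal in each array of 8 genes with a larger change in mutants, by group, with the mean (line) and SD (grey bar) of 3 arrays; the dotted line is the filter level of 4. Sstr2, Taf1a, Tinf2, Gpr19 and Zfp948 were called for the difference in response; Usp38, Dnajb1 and Vegfa were not, with differences of 1.07, 0.89 and 0.66.

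Further genes had large mutant changes without a called difference. Usp38, a deubiquitinase, read 3.92, 3.80 and 3.82 on saline and 5.42, 4.97 and 4.71 on cocaine in mutants (1.18, against 0.11 in controls; difference 1.07, adjusted p = 0.0985). Pvr, a cell adhesion receptor of the nectin family, changed by 1.14 and 0.04. Ier3, an early survival gene, went from 4.71, 4.87 and 4.88 to 6.53, 6.06 and 5.65 (1.26, against 0.21). Lipg, the endothelial lipase gene, changed by 1.19 from 3.91, 3.45 and 4.64, while the 6 control arrays read 2.28 to 2.53. Vegfa, an angiogenic growth factor, went from 5.15, 5.37 and 5.30 to 6.41, 6.29 and 6.38 (1.09, against 0.43; difference 0.66, adjusted p = 0.0877).

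A minority of the tested regulators tied to cyclic AMP and MAP kinase signalling rose. Per1, a clock gene with a strong CREB input, went from 6.30, 6.08 and 6.56 to 7.58, 7.61 and 7.52 (1.25, against 1.23 in controls). Crem, whose short products repress CREB targets, went from 4.35, 4.97 and 4.53 to 6.09, 5.77 and 5.40 (1.13, against 0.48), and its dimmer probe set changed by 1.73. Atf4 changed by 0.64. These were the 3 risers of 11 tested genes for CREB and ATF factors and cyclic AMP feedback (median change 0.07), and Pde10a (0.17) and Pde4b (-0.08) were not called. Dusp6, which acts on ERK, went from 6.11, 6.14 and 6.58 to 7.30, 7.72 and 7.58 (1.25, against 1.61), and 2 of 9 MAPK feedback genes rose (median change 0.07). Elk4, a partner of SRF, changed by 0.51 (adjusted p = 0.0241), and the other 5 tested genes of Srf and its partners were not called. The calls of Crem, Atf4 and Elk4 were lost when cocaine replicate 1 of the mutants was left out.

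Genes that handle misfolded protein and oxidative stress were among the moderate risers. The grouping of the genes in this and the next paragraph by function was made after their values were seen and has no test. Dnajb1, a cochaperone of Hsp70, read 7.57, 7.86 and 7.80 under saline, against 9.39, 8.90 and 8.73 under cocaine (1.26, SE 0.167, against 0.37 in controls). Hspa14, an Hsp70 family member at the ribosome, rose by 0.97 (0.12 in controls) and Dnajb5 by 1.01 (1.04 in controls). The abundant chaperone Hspa8 read 0.06 and Hspa5, the chaperone of the endoplasmic reticulum, 0.11, without a call. Ppp1r15a, which reverses the phosphorylation of eIF2alpha, went from 4.20, 4.39 and 4.66 to 5.81, 6.19 and 6.14 (1.63, against 0.66; difference 0.97, adjusted p = 0.178). Ddit3, a stress-induced transcription factor, rose by 0.44 in mutants and 0.45 in controls. Gclc, which catalyses the first step of glutathione synthesis, rose by 0.95, the carbonyl reductases Cbr3 and Cbr1 by 0.55 and 0.51, and the thioredoxin reductase Txnrd1 by 0.43, beside 0.14 to 0.25 in controls without a call. Of 23 tested chaperone and stress genes 6 rose in mutants (median 0.13) and 2 in controls (median 0.06).

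Other moderate risers served gene expression and protein turnover. The ubiquitin pathway genes Usp36 (1.34), Siah2 (1.33) and Arih2 (0.78) rose in mutants, and read 0.68, 0.58 and 0.28 in controls without a call. Taf13, a subunit of TFIID, rose by 1.08, the chromatin remodeller Smarca5 by 0.86 and Mnt, a repressor of the Myc network, by 0.94. Their control values were 0.27, 0.17 and 0.45 without a call. Ccnl1, a cyclin that acts in splicing, rose by 0.87 and the splicing factor Srsf5 by 0.39, beside 0.54 and 0.21 in controls without a call. These were the 2 risers among the 29 tested genes of the splicing list. Outside that list, Dxo (0.94), Cdk11b (0.65), Prpf38a (0.54) and Hnrnpll (0.34), grouped under splicing and RNA processing, also rose in mutants. They read 0.61, 0.30, 0.25 and 0.15 in controls without a call. Nop9 (0.58), Utp25 (0.56) and Sbds (0.60) act in ribosome assembly, and read 0.09, 0.11 and 0.44 in controls without a call. Arf4 (0.72) and Mia3 (0.65) act in the early secretory pathway, and Syt4 (0.61) and Chgb (0.69) belong to dense-core vesicles. Chgb also rose in controls (0.43, adjusted p = 0.0311), where Arf4, Mia3 and Syt4 read 0.21, 0.10 and 0.08 without a call. Signalling genes that rose included the insulin receptor substrate Irs2 (1.07, and 1.18 in controls), the phosphatase Ppm1d (0.99), the kinase Pim3 (0.96) and the G protein subunit Gnai3 (0.86). Ppm1d, Pim3 and Gnai3 read 0.33, 0.55 and 0.47 in controls without a call. No gene of this paragraph was called for the difference in response.

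The genes that fell in mutants were few and dim. Their saline levels ran from 3.93 to 5.54, and 5 of the 10 lay under 4 after cocaine. Gfap, the intermediate filament of astrocytes, read 4.87, 4.71 and 5.58 with saline, then 3.58, 4.26 and 4.26 with cocaine, a fall of 1.02 on the log2 scale (log2 change -1.02, SE 0.217, adjusted p = 0.0303). Saline-treated controls read 4.25, 4.30 and 4.23, a difference in saline level of 0.80 that was not called (adjusted p = 0.076). A dimmer Gfap probe set changed by -0.93, and its saline level was called as higher in mutants (1.26, adjusted p = 0.00203). Zfp553, a zinc finger gene, went from 4.07, 4.06 and 4.06 to 3.53, 3.59 and 3.47 (-0.53, SE 0.0802, adjusted p = 0.00273), and was the most even of the 10. Cabp1, a neuronal calcium-binding protein, went from 4.33, 4.23 and 4.39 to 3.74, 3.77 and 3.75 (-0.56). The others were Myo7a, an unconventional myosin (-0.67), Rpl27a, a ribosomal protein (-0.66), the magnesium transport gene Cnnm3 (-0.54), Mcat, of mitochondrial fatty acid synthesis (-0.51), Smn1, of spliceosomal particle assembly (-0.49), Lrrc61 (-0.42) and Tti1, which stabilises kinases of the mTOR family (-0.38).

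**Figure D4:**
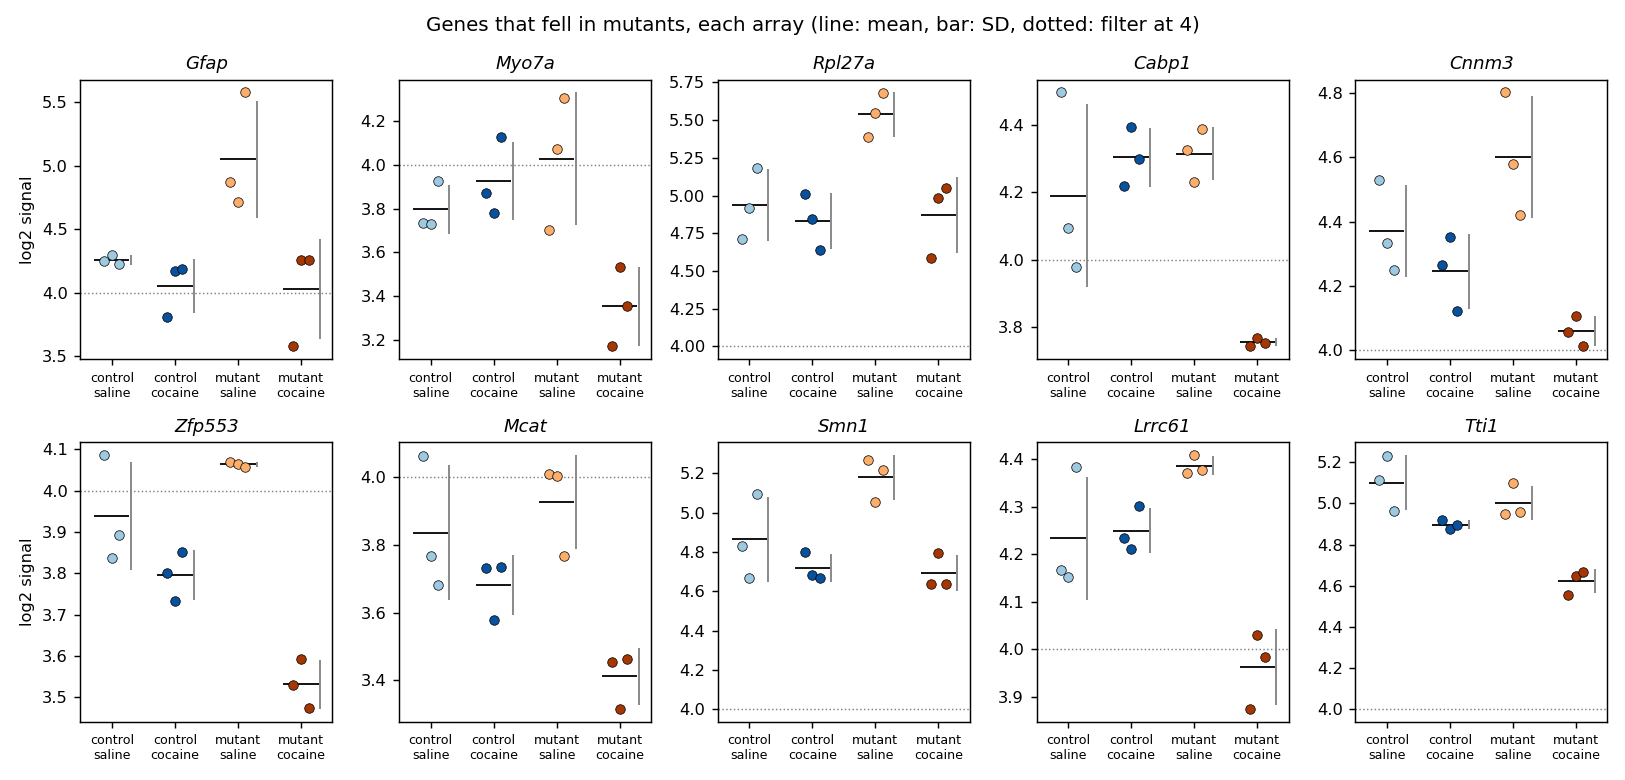
Log2 signal in each array of the 10 genes that fell with cocaine in mutants, by group, with the mean (line) and SD (grey bar) of 3 arrays; the dotted line is the filter level of 4. The cocaine-treated mutants lie wholly below the saline-treated mutants in each panel, most values lie between 3 and 6, and for Gfap the saline-treated mutants lie above the other 3 groups.

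The falls depended on the filter and on single arrays. Without the filter 17 probe sets fell, and 6 of them were among the 18 called with it. Mcat and Zfp553 exceeded 4 in saline arrays only, so they were tested through groups in which they were higher. Of the 18 probe sets that fell, 12 were below 0 in controls (66.7%, against 49.0% of all tested), and 2 had control arrays that did not overlap (cocaine wholly below saline, as in 4.51% of all tested). Among fits that left out 1 mutant array, the number that fell was 3 without cocaine replicate 1, 9 without cocaine replicate 2, 11 without cocaine replicate 3 and 11 without saline replicate 3. Gfap was not called without cocaine replicate 1 or without saline replicate 1 or 3 of the mutants (adjusted p up to 0.149 over all alternatives), and Zfp553 alone of the 10 genes was called under every alternative in which it was tested.

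Gfap was the called gene among the cell type markers. In mutants 0 of 22 medium spiny neuron genes, 0 of 12 oligodendrocyte, 0 of 11 microglial, 0 of 9 endothelial and mural, 0 of 6 interneuron and 0 of 3 cortical neuron markers were called by limma, with median changes between -0.12 and 0.17. At an unadjusted p under 0.05 these lists had 2, 0, 1, 0, 0 and 0 members, where 10.7% of all 6651 genes passed that p and 2.14% were called. Of 14 tested astrocyte markers 1 fell and 3 had an unadjusted p under 0.05 by limma, with a median change of 0.01. The summed linear signal of the astrocyte markers was 5398 to 6239 in saline-treated and 5354 to 5979 in cocaine-treated mutants, and that of medium spiny neuron genes 19478 to 20673 and 18671 to 19984, so the groups overlapped. Ttr, a choroid plexus transcript, varied between 3.05 and 5.90 over the mutant arrays (0.52, adjusted p = 0.959), and its part in other values was not tested. By limma 0 of 29 actin cytoskeleton genes were called in mutants (3 at an unadjusted p under 0.05), with Actb at 0.03 and Actg1 at -0.01. Itga5, an integrin subunit of that list, read -0.92 without a call.

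**Figure D5:**
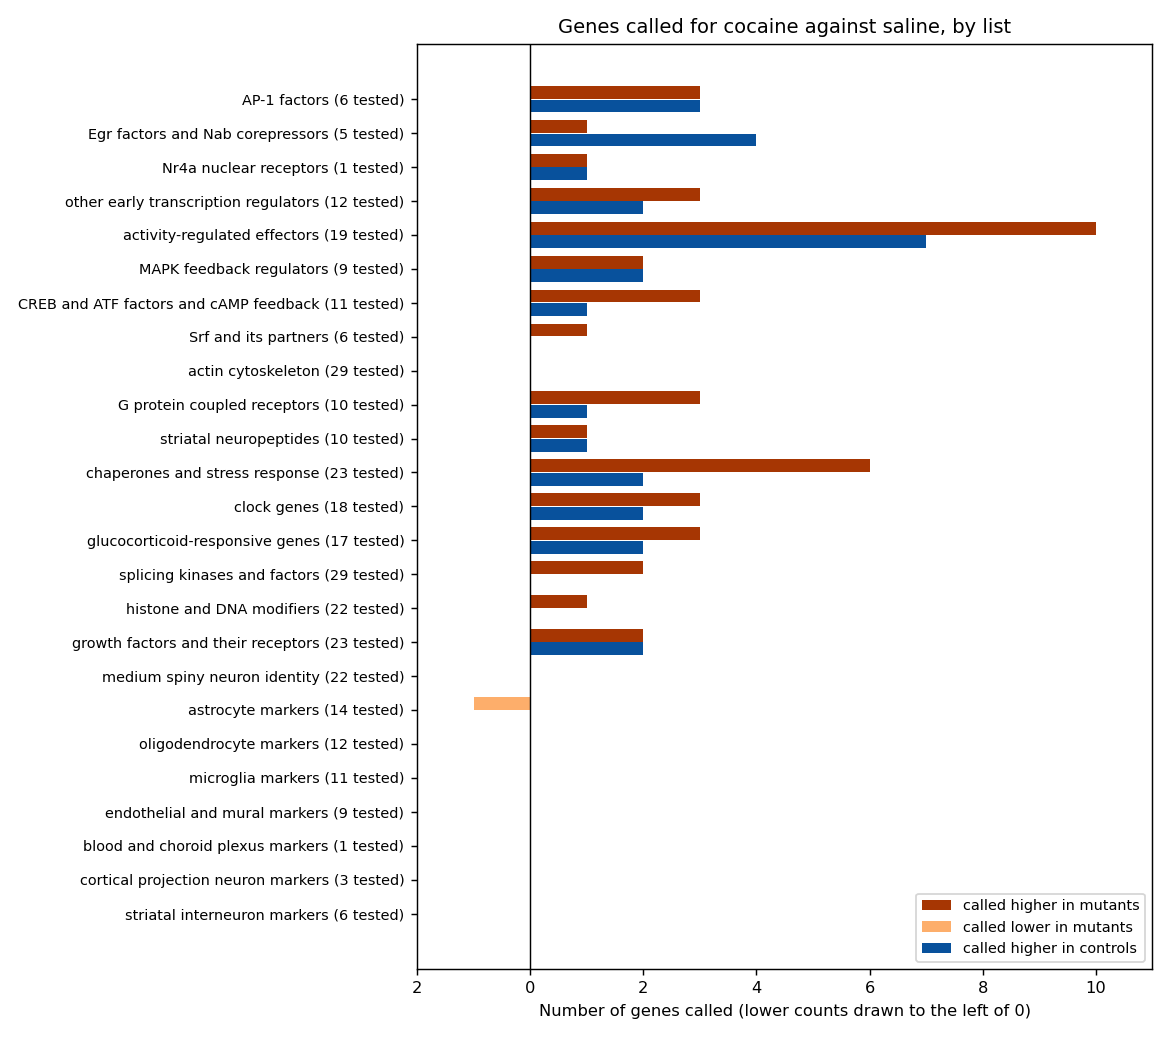
Number of genes called for cocaine against saline in each of 25 gene lists, in mutants (brown, with lower calls to the left of 0) and controls (blue), with the number tested in brackets. Effectors have 10 calls in mutants and 7 in controls, Egr and Nab genes 1 and 4, chaperone and stress genes 6 and 2, and the astrocyte list has 1 lower call in mutants.

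Over all 25 lists 39 of 304 tested genes were called in mutants, against 2.14% of all genes. Many of the lists were picked for genes known to respond to stimulation. Of all genes 1.98% rose, the share beside which the counts of risers here stand. Glucocorticoid-responsive genes had 3 risers of 17, Dusp1, Per1 and Errfi1, with a median change of 0.38 in mutants and 0.12 in controls. Their members Tsc22d3 (0.58 and 0.11), Sgk1 (0.50 and 0.12) and Pdk4 (0.49 and 0.10) were not called. Clock genes had 3 risers of 18, Per1, Bhlhe40 (1.13) and Csnk1d (0.38, with another of its probe sets at -0.21), and Dbp (-0.17) and Arntl (-0.17) were not called. Histone and DNA modifiers had 1 riser of 22, Kdm7a. The list of growth factors and receptors had 2 of 23, Vegfa and Mest, the hydrolase fold gene that was also placed in it. Neuropeptide genes had 1 of 10, Chgb, while Pdyn (0.07), Tac1 (0.02), Penk (-0.08) and Cartpt (0.04) were not called.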

How the data were processed

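RNA from 12 striatal samples was hybridised to Affymetrix mouse arrays, 1 sample per array and 3 per group. Each probe set has 1 deposited log2 value per array, which the authors computed with GCRMA under R 2.4.1 according to the submitters' processing notes. The GCRMA options and the log base were not stated in the sources used here, and log2 was inferred from the range of the values. GCRMA removes background by probe sequence and equalises the arrays, so a shift common to all genes would not be visible, and dim probe sets are compressed. The number of arrays limits the precision, and p-values measure the spread between samples that the titles call biological replicates. No column of another sample was present (0 unused).

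Groups came from the titles. After 64 control probe sets were left out of 22690, probe sets above 4 in at least 3 of 12 arrays were tested (11102; 10267 with 1 gene symbol in the platform annotation, 378 with several and 457 with none, which were counted but not named). The gene identifiers of 10258 were found in RefSeq (GRCm38.p6). All adjusted p-values are from limma 3.58.1 in R 4.3.3, fitted to the means of the 4 groups over all 12 arrays (8 residual and 4.71 prior degrees of freedom), with Benjamini-Hochberg adjustment over all tested probe sets and a call at 0.05, two-sided; errors are limma standard errors. The fit was tested on simulated data. A gene is represented by its brightest tested probe set with 1 symbol.

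The comparison, its members and the gene lists were chosen with earlier results of these data known. Named genes are Srf, the 20 rising and up to 12 falling genes with the largest called change and arrays that do not overlap, up to 5 called members and the brightest uncalled member of each list, genes called for the difference in response or in controls alone, and the 10 with the largest difference in each direction; other genes were named after their values were seen. Alternatives were no filter, a filter at 6, quantile normalisation, median centring, array weights, an intensity trend, a replicate block, the 6 arrays of a genotype alone, each array left out, another probe set rule and promoter windows of 100 bases.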

Additional observations from a re-analysis of the deposited data

Results flagged for a closer look

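The responses of 7 genes to cocaine differed between mutants and controls by limma's test of the difference (mutant minus control response, log2). They were larger in mutants for Sstr2 (1.85), Taf1a (1.56), Tinf2 (1.25), Gpr19 (1.12) and Zfp948 (0.98). They were smaller for Egr2 (-3.94, and -4.31 by its other probe set) and Egr4 (-2.82). In each of the 5 genes with a larger response all cocaine-treated mutant arrays lay above all other arrays. Sstr2 passed the filter through the cocaine-treated mutants, and Egr2 and Egr4 through the cocaine-treated controls.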

How the results depend on the processing

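No called change of a named gene changed sign under any alternative, while uncalled values did so in 102 gene-by-setting pairs. This largely follows from the choice, since called changes were large beside their standard errors and the alternatives share most arrays. With the most variable probe set per gene, the list medians in mutants changed sign for medium spiny neuron genes (-0.05 to 0.0039), splicing genes (0.02 to -0.03) and histone and DNA modifiers (0.01 to -0.02). The number of probe sets that fell in mutants was 4 with the filter at 6, which leaves out the 18 by their level. It was 17 without the filter, 6 of them among the 18, and 9 with only the 6 mutant arrays. In controls, array weights gave 88 calls, 81 higher and 7 lower, and the replicate block gave 1 lower. Without the filter 5 probe sets were called for a difference in response, 2 of them larger in mutants. With promoter windows of 100 bases the share of mutant risers with a CRE core was 39.8%, against 21.4% of all genes and 31.4% of control risers. The share of mutant risers with an AP-1 site was 0%. Leaving out each array in turn gave 131 to 240 calls in mutants (128 to 217 higher, 3 to 23 lower), 40 to 56 in controls (40 to 56 higher, 0 to 2 lower) and 6 to 9 for the difference (3 to 6 larger, 3 to 4 smaller in mutants). For named genes in mutants, 129 calls were lost over all gene-by-setting pairs, 6 were gained, 1 uncalled value moved by more than its spread and 1454 kept their side of the threshold; the cause was not tested.

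The labels do not say whether replicate numbers pair the samples. Deviations of same-numbered arrays correlated between -0.145 and 0.116, which cannot decide it, since arrays with different numbers were not compared. With the replicate number as a block 178 probe sets were called in mutants, 169 of them among the 213, with 163 higher and 15 lower, 46 in controls and 7 for the difference. Near a signal of 4 the background correction limits what can be seen, above all for Egr2, Egr4, Fosb, Sstr2 and the genes that fell. The share of calls that were higher was 91.5%, 89.7% with quantile normalisation and 88.3% with median centring.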
